A study of Mus musculus with 9 samples.

Results

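The mitosis, spindle and cytokinesis genes described here are 47 genes of the 14209 in the count table. They were chosen by their known roles in cell division and not by their values, but with earlier results of these data known. All 47 were found in the table and all 47 passed the filter on low counts, which left 12043 genes for testing. They fall into 9 groups by role: mitotic entry and kinases (5 genes), the spindle checkpoint (4), the chromosomal passenger complex (4), centromere and kinetochore (7), the anaphase-promoting complex and separase (4), kinesins (8), spindle and microtubule proteins (5), condensin and topoisomerase (6) and cytokinesis (4).

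RNA was sequenced from type 2 conventional dendritic cells (cDC2s) of the spleen of C57BL/6 mice, in 3 libraries per genotype. The CD97-deficient mice carried Adgre5-/-, a constitutive loss of the adhesion receptor CD97. The Gα13-deficient mice carried Gna13fl/fl with a CD11c-Cre transgene, in which the CD11c (Itgax) promoter drives Cre recombinase in dendritic cells and in some macrophages. Wild-type (WT) mice were the controls, and the labels do not say whether they or the CD97-deficient mice carried Cre. The genotype text of the Gα13-deficient samples also names Adgre5-/-, while their titles and the series' design text name Gna13 alone. The ages of the mice and the sort that isolated the cells are not given. Nor is it said that the libraries within a genotype are from different mice, and the p-values therefore rest on the scatter among 3 libraries that may share an animal.

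Division of a cell starts when the kinases Cdk1, Plk1 and the Aurora kinases trigger chromosome condensation and spindle assembly. Kinetochores then capture microtubules, and the spindle checkpoint holds the anaphase-promoting complex (APC/C) inactive until every chromosome is attached. Once released, APC/C with its activator Cdc20 marks securin for destruction, separase cuts cohesin, and an actomyosin ring divides the cytoplasm. Transcripts of most of these genes accumulate in G2 and mitosis, so in a mixed population their level follows the share of cycling cells. Splenic cDC2s arise from blood-borne precursors, and a minority of them divide within the spleen. In such bulk samples, more dividing cells and more of a transcript per dividing cell cannot be told apart.

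Total counts ran from 5679946 to 13904646 per library, so that 3 counts in a library were worth 0.216 to 0.528 counts per 1000000 library counts (CPM). The lowest count of any of the 47 genes in any library was 16. CPM are scaled below by TMM factors, which correct for library composition. The targeted genes were read first. Cd97, the symbol used in the table for Adgre5, had 725, 839 and 437 CPM in CD97-deficient libraries 1 to 3, 1144, 1223 and 1015 CPM in Gα13-deficient libraries, and 1505, 899 and 1298 CPM in WT libraries. The CD97-deficient values lay below all WT values, and the change of -0.89 ± 0.28 on the log2 scale (standard error) did not pass the test (edgeR adjusted p = 0.105). Gna13 had 113, 96.7 and 91.7 CPM in Gα13-deficient libraries, 227, 217 and 246 CPM in CD97-deficient libraries and 226, 228 and 186 CPM in WT libraries, and its log2 fold change in Gα13-deficient against WT cells was -1.09 ± 0.11 (edgeR adjusted p = 6.84e-05).

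The libraries differed in ways that the genotype labels do not give. By Xist and Y-linked transcripts, all 3 CD97-deficient libraries, Gα13-deficient library 2 and WT library 2 had a female pattern, and the other 4 had a male pattern. Of the 16 listed cDC2 markers, 16 were in the table, with summed levels of 27730 to 29494 CPM in CD97-deficient, 28561 to 32507 CPM in Gα13-deficient and 31257 to 32151 CPM in WT libraries, a sum made up mostly of Cd74 and the class II genes. Of these markers 2 were called higher and 3 lower in Gα13-deficient against WT cells, and 0 higher and 0 lower in CD97-deficient against WT cells. Cd209a had 120, 108 and 75.7 CPM in CD97-deficient, 242, 119 and 132 CPM in Gα13-deficient and 583, 183 and 199 CPM in WT libraries. Other markers lay higher in Gα13-deficient than in WT libraries. Itgax had 1341, 1461 and 1427 CPM in CD97-deficient, 1898, 1928 and 1730 CPM in Gα13-deficient and 1452, 1363 and 1585 CPM in WT libraries. Clec10a, at a low level, had 2.95, 3.37 and 1.79 CPM, then 8.06, 5.38 and 5.56 CPM, and 3.60, 3.94 and 3.05 CPM in the same order. All 12 listed macrophage markers were measured, Adgre1 under its older symbol Emr1. Their summed level ran from 414 to 1477 CPM in CD97-deficient, 523 to 814 CPM in Gα13-deficient and 396 to 1188 CPM in WT libraries. Of these markers 2 were called lower in each deficient genotype. The 7 monocyte markers summed to 331 to 519 CPM in CD97-deficient, 483 to 639 CPM in Gα13-deficient and 286 to 506 CPM in WT libraries, with 1 called higher in Gα13-deficient cells. The 8 markers of type 1 conventional dendritic cells summed to 155 to 237, 221 to 285 and 146 to 238 CPM in the same order of groups, with 1 called higher in each deficient genotype and 1 lower in Gα13-deficient cells. The 5 measured erythroid markers of 11 listed summed to 18.6 to 27.8, 17.4 to 28.3 and 16.2 to 29.3 CPM in CD97-deficient, Gα13-deficient and WT libraries. The 7 B cell markers summed to 59.9 to 106, 44.9 to 63.9 and 56.0 to 72.0 CPM in the same order of groups, with 1 called lower in Gα13-deficient cells, and the 2 measured neutrophil markers of 7 listed to 1.21 CPM or less. Markers of plasmacytoid dendritic cells summed to 170 to 193, 215 to 331 and 153 to 209 CPM in the same order, with 2 of 7 called higher in Gα13-deficient against WT cells, and the part of these marker differences in the results below was not tested, apart from the macrophage level.

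Almost the whole set stood higher in both deficient genotypes than in WT cells, by about 2-fold at the middle of the set. Summed over the 47 genes, the level was 5275, 4897 and 5116 CPM in CD97-deficient libraries, 4784, 5337 and 6012 CPM in Gα13-deficient libraries, and 2703, 3253 and 2229 CPM in WT libraries. No library of either deficient group came down to the highest WT library, and the means were 5096 ± 190, 5378 ± 615 and 2728 ± 513 CPM (SD, n = 3 each). In CD97-deficient against WT cells 42 of the 47 genes rose, 0 fell and 5 did not pass the test (edgeR adjusted p under 0.05), against 4.84% of all 12043 tested genes called higher and 3.69% called lower. In 46 of 47 genes all 3 CD97-deficient libraries were above all 3 WT libraries, against 14.7% of all tested genes. In Gα13-deficient against WT cells 42 rose, 0 fell and 5 did not pass, against 5.74% of tested genes called higher and 5.24% called lower, and 44 of 47 had no overlap between the groups, against 15.5% of tested genes. The estimate was above 0 in 46 of 47 genes in each comparison, against 49.6% of tested genes in CD97-deficient and 49% in Gα13-deficient against WT cells. The median log2 fold change of the 47 genes was 0.96 in CD97-deficient cells, with a range of -0.19 to 1.45, and 1.10 in Gα13-deficient cells, with a range of -0.24 to 1.55. The median of all tested genes was -0.00 and -0.01 in the 2 comparisons. Both comparisons share the 3 WT libraries, so their results are not independent of each other. Of the 47 genes, 40 were called higher in both and 3 in neither.

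**Figure D1:**
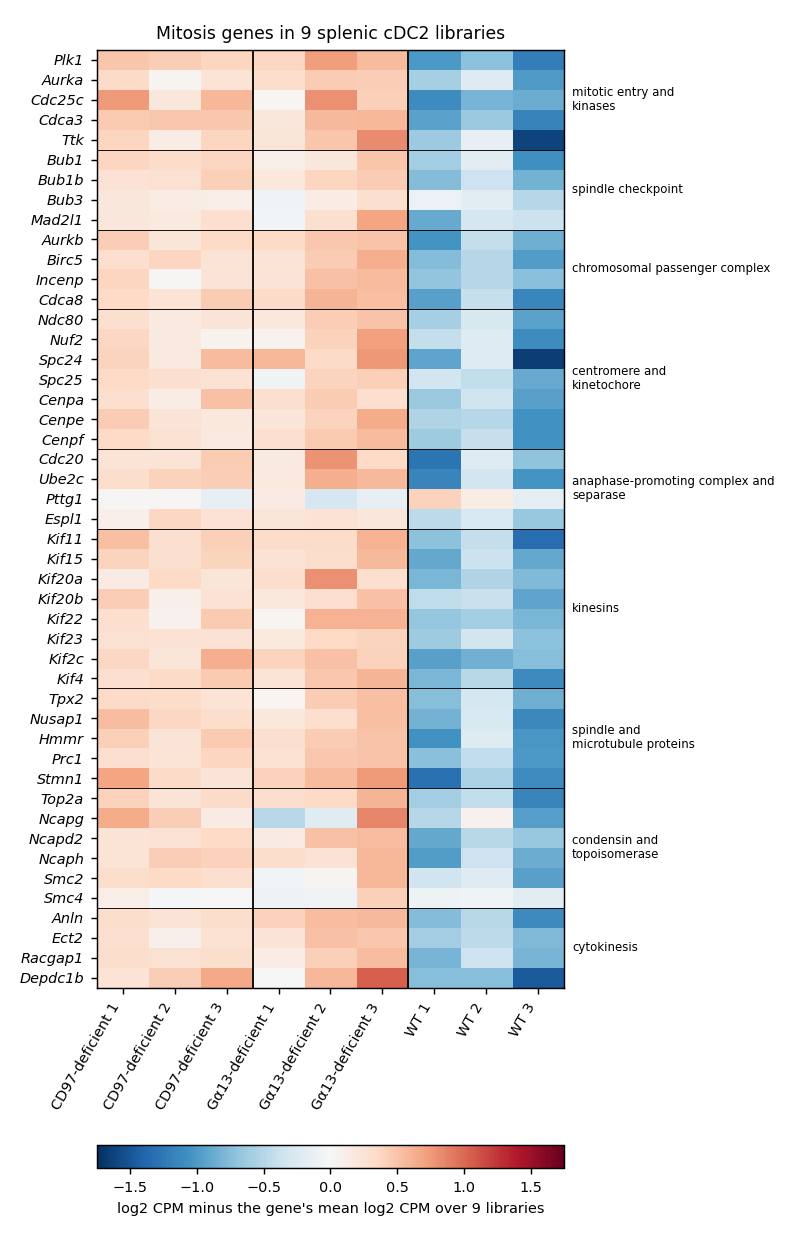
Level of each of the 47 genes (rows, grouped by role) in the 9 libraries (columns, CD97-deficient, Gα13-deficient and WT from left to right), as log2 CPM minus the gene's mean log2 CPM over the 9 libraries. Nearly every row is red in the 6 deficient libraries and blue in the 3 WT libraries, WT library 2 is the palest of the WT columns, and the rows of Pttg1 and Smc4 stay pale.

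Sex pattern and macrophage level varied alongside the set among the WT libraries. WT library 2, which had the female pattern and the highest macrophage level of the WT libraries (1188 CPM summed), was the highest WT library in 43 of the 47 genes. Gα13-deficient libraries differed from this. Their library 3, of male pattern, had the lowest macrophage level (523 CPM summed) and the highest sum of the set (6012 CPM). Among CD97-deficient libraries, all of female pattern, library 2 was the lowest in macrophage level and in the sum of the set. With the sex pattern as a term in the fit, 28 of the 47 genes passed in CD97-deficient against WT cells and 42 of 47 in Gα13-deficient against WT cells. The count for all tested genes in the first of these comparisons fell to 222 with that term, against 1027 without it. With the macrophage level as a term, 39 and 42 of the 47 passed, among 716 and 1297 of all tested genes. Comparing only the 2 male-pattern Gα13-deficient libraries with the 2 male-pattern WT libraries, 39 of 47 passed, among 608 of all tested genes. The median log2 fold change of the 47 genes was 1.22. Among female-pattern libraries, the median was 0.78 in the 1 Gα13-deficient library against the 1 WT library. It was 0.69 in the 3 CD97-deficient libraries against that WT library. The lone libraries are assumed in these fits to vary like the others. A comparison of male-pattern libraries cannot be made for CD97-deficient cells.

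Many of these genes are known to share a pair of promoter elements, the CHR element (TTTGAA), through which the DREAM and MuvB complexes time expression to G2 and mitosis, and the CCAAT box, bound by NF-Y. The letters of both were searched on either strand of RefSeq promoter windows (GRCm38.p6, 250 bases before to 50 bases after each start). The motifs do not share letters that would make one a match of the other. Windows were found for 38 of the 47 genes. TTTGAA was present in 30 of the 38 genes (78.9%), against 14.7% of the 9465 tested genes with a window and 20.2% of all promoters in the table. Within 50 bases of the start it was present in 28 of 38 (73.7%), against 3.85% of tested genes. CCAAT was present in 27 of 38 (71.1%), against 43.3% of tested genes and 41.1% of all promoters. Both were present in 25 (65.8%), against 7.05% of tested genes. Neither was found in 6 genes, Birc5, Mad2l1, Ncaph, Nuf2, Nusap1 and Pttg1. A match is a string of letters and not a demonstration of binding, and its absence says only that the letters are not in this window.

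Stretches from 5 promoters are shown because these genes, each 1 of the 2 most abundant of its role by CPM, carry the pair of elements in their windows at different spacings. The first 4 run from position -100 to -12 relative to the RefSeq start and the fifth from 18 to 47, in which position 1 is the first transcribed base. Capitals mark TTTGAA or CCAAT read on either strand (TTCAAA and ATTGG on the reverse).
Ube2c, chr2:164769829-164769917, plus strand: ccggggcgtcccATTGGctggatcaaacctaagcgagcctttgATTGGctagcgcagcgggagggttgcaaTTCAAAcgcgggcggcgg
Espl1, chr15:102296193-102296281, plus strand: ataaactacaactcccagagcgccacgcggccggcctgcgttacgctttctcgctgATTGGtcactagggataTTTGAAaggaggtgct
Kif11, chr19:37376282-37376370, plus strand: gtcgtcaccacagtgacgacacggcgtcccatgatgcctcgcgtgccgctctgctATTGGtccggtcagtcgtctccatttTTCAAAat
Top2a, chr11:99024201-99024289, minus strand: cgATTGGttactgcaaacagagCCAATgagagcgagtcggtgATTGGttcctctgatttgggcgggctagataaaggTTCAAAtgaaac
Plk1, chr7:122159452-122159481, plus strand: tcccagcgccgcgTTTGAAttcggggagga
In each of the first 4 stretches, a CCAAT box lies before 1 CHR match that sits within 30 bases of the start, and in Plk1 the CHR match lies past the start, at position 31. Among tested genes outside the set, 179 had TTTGAA within 50 bases of the start together with CCAAT. Of these, 30 (16.8%) were called higher in CD97-deficient and 33 (18.4%) in Gα13-deficient against WT cells, while of 4635 genes with neither motif 3.91% and 4.40% were. The 179 include genes of the further mitosis and S phase lists described below, and of the 163 outside those lists 12.3% and 13.5% were called higher. With both motifs anywhere in the window the shares were 9.81% and 10.7% of 642 genes. They were 4.43% and 5.53% of 723 with TTTGAA only, and 4.76% and 5.98% of 3427 with CCAAT only. The 163 genes can still include cell cycle genes that are on neither list. Motif content and a role in the cell cycle cannot be told apart here, and a part of the motifs in the rise was not tested.

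**Figure D2:**
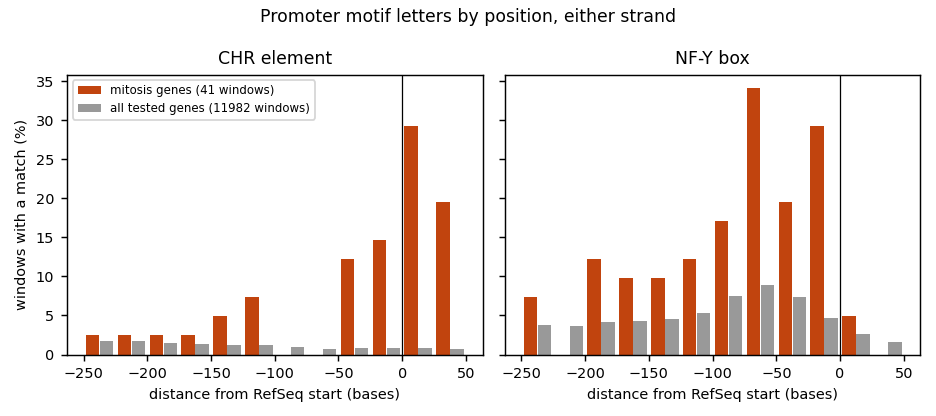
Share of promoter windows with a match (%) by distance from the RefSeq start in bins of 25 bases, for the CHR element (left) and the NF-Y box (right), on either strand. Bars for the 41 windows of the mitosis genes rise within 50 bases of the start for the CHR element and mainly before the start for the NF-Y box, while bars for the 11982 windows of all tested genes stay under 10%.

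Among the genes of mitotic entry, 4 of 5 rose in CD97-deficient cells (median log2 fold change 1.36) and 5 of 5 in Gα13-deficient cells (median 1.36). Plk1, the polo-like kinase that drives mitotic entry and centrosome maturation, had 31.9, 30.6 and 29.5 CPM in CD97-deficient, 29.4, 37.7 and 33.6 CPM in Gα13-deficient and 11.3, 13.8 and 9.84 CPM in WT libraries. Every deficient library was more than 2-fold above the highest WT library. Its log2 fold change was 1.39 ± 0.16 in CD97-deficient cells (SE, edgeR adjusted p = 0.000568) and 1.51 ± 0.16 in Gα13-deficient cells (edgeR adjusted p = 9.74e-05). Cdca3, an adaptor for the degradation of the mitotic inhibitor Wee1, had 38.5, 38.6 and 39.0 CPM in CD97-deficient, 32.2, 41.5 and 41.8 CPM in Gα13-deficient and 14.6, 17.9 and 12.4 CPM in WT libraries, and rose by 1.36 ± 0.15 in both genotypes (edgeR adjusted p = 0.000568 and 0.000166). Cdc25c, the phosphatase that activates Cdk1, showed the largest rise of the set in CD97-deficient cells, with 19.1, 13 and 17.1 CPM in CD97-deficient, 11.7, 19.8 and 15.2 CPM in Gα13-deficient and 5.34, 6.52 and 6.28 CPM in WT libraries. Those values correspond to log2 fold changes of 1.45 ± 0.23 and 1.36 ± 0.23 (edgeR adjusted p = 0.0017 and 0.0018). Ttk (Mps1), the kinase that starts checkpoint signalling at kinetochores, was the member of this role that missed the threshold in CD97-deficient cells. It had 27.2, 22.8 and 27.0 CPM in CD97-deficient, 24.3, 29.4 and 37.2 CPM in Gα13-deficient and 13.4, 18.9 and 6.79 CPM in WT libraries. The groups did not overlap, but the WT libraries were widely spread, and the log2 fold changes were 0.96 ± 0.29 (edgeR adjusted p = 0.0649) and 1.21 ± 0.29 (edgeR adjusted p = 0.0219, or 0.0906 with the replicate number of the titles as a block in a fit of these 2 groups). That block, also used below, rests on a pairing taken from the data, as the labels name none. Aurka, the centrosomal Aurora kinase, rose by 0.77 ± 0.17 and 0.95 ± 0.17.

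The spindle checkpoint genes showed a rise in 4 of 4 in CD97-deficient cells (median 0.83) and in 3 of 4 in Gα13-deficient cells (median 0.85). Bub1b (BubR1), the subunit of the mitotic checkpoint complex that inhibits Cdc20, had 136, 137 and 152 CPM in CD97-deficient, 129, 147 and 154 CPM in Gα13-deficient and 67, 88 and 64.1 CPM in WT libraries. Its log2 fold changes were 0.95 ± 0.12 and 0.97 ± 0.12 (edgeR adjusted p = 0.000584 and 0.000185). Bub3, which carries Bub1 and BubR1 to kinetochores, changed least in this role, with 102, 97.8 and 96.5 CPM in CD97-deficient, 85.9, 97.4 and 108 CPM in Gα13-deficient and 83.6, 79.0 and 63.3 CPM in WT libraries. Both deficient groups lay above WT without overlap, in Gα13-deficient library 1 by a small margin. It passed narrowly in CD97-deficient cells (0.39 ± 0.12, edgeR adjusted p = 0.0498) and missed in Gα13-deficient cells (0.37 ± 0.12, edgeR adjusted p = 0.0548). Bub1, the kinase that recruits shugoshin to centromeres, rose by 0.93 ± 0.18 and 0.85 ± 0.18, the second of these not passing with the replicate block (edgeR adjusted p = 0.0582), and Mad2l1, the Mad2 subunit of the same checkpoint complex, rose by 0.72 ± 0.19 and 0.85 ± 0.19.

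All 4 genes of the chromosomal passenger complex, which corrects wrong microtubule attachments and later marks the cleavage site, rose in both genotypes, with medians of 1.06 in CD97-deficient and 1.19 in Gα13-deficient cells. Incenp, its scaffold, had 102, 80.7 and 93 CPM in CD97-deficient, 92.6, 113 and 116 CPM in Gα13-deficient and 49.3, 55.8 and 47.7 CPM in WT libraries. Aurkb, its kinase, had 96.7, 83.4 and 91.5 CPM in CD97-deficient, 91.8, 100 and 101 CPM in Gα13-deficient and 34.9, 53.6 and 39.7 CPM in WT libraries. The WT libraries of both genes were well below all 6 others. Log2 fold changes were 0.85 ± 0.12 and 1.07 ± 0.12 for Incenp (edgeR adjusted p = 0.000842 and 0.000161) and 1.09 ± 0.14 and 1.19 ± 0.14 for Aurkb (edgeR adjusted p = 0.000584 and 0.000166). The targeting subunits Birc5 (survivin) and Cdca8 (borealin) rose by 1.03 ± 0.13 and 1.14 ± 0.16 in CD97-deficient cells and by 1.18 ± 0.13 and 1.28 ± 0.16 in Gα13-deficient cells.

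Of the centromere and kinetochore genes, 6 of 7 rose in CD97-deficient cells (median 0.93) and 7 of 7 in Gα13-deficient cells (median 0.96). Cenpf, a large kinetochore and nuclear matrix protein, had 275, 260 and 244 CPM in CD97-deficient, 265, 298 and 319 CPM in Gα13-deficient and 141, 164 and 104 CPM in WT libraries. Cenpe, the kinetochore motor that moves chromosomes to the spindle equator, had 283, 244 and 238 CPM in CD97-deficient, 241, 273 and 329 CPM in Gα13-deficient and 145, 148 and 100 CPM in WT libraries. For both genes WT library 3 was the lowest of all 9, and no deficient library came near the WT range. Cenpf rose by 0.93 ± 0.14 and 1.11 ± 0.14 (edgeR adjusted p = 0.00173 and 0.000402) and Cenpe by 0.96 ± 0.16 and 1.10 ± 0.16 (edgeR adjusted p = 0.00428 and 0.0015). The 4 subunits of the Ndc80 complex, the main microtubule attachment of the kinetochore, differed in how firmly they were called. Ndc80 itself rose by 0.79 ± 0.14 and 0.95 ± 0.14, Spc24 by 1.19 ± 0.26 and 1.38 ± 0.26, and Spc25 by 0.81 ± 0.20 and 0.79 ± 0.20, the last value not passing with the replicate block (edgeR adjusted p = 0.0613). Nuf2 had 42.2, 36.6 and 34.2 CPM in CD97-deficient, 34.2, 43.2 and 54.1 CPM in Gα13-deficient and 24.6, 28.0 and 15.3 CPM in WT libraries. Its groups did not overlap, and the log2 fold change was 0.72 ± 0.21 in CD97-deficient cells (edgeR adjusted p = 0.057) and 0.95 ± 0.21 in Gα13-deficient cells (edgeR adjusted p = 0.0138, or 0.0725 with the replicate block). Cenpa, the histone H3 variant that marks centromeres, rose by 0.94 ± 0.15 and 0.96 ± 0.15.

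In the group of the anaphase-promoting complex and separase, 3 of 4 genes rose in each genotype and the fourth, securin, did not. Ube2c, the ubiquitin-conjugating enzyme that works with APC/C, had 97.6, 104 and 106 CPM in CD97-deficient, 88.3, 122 and 116 CPM in Gα13-deficient and 35.1, 62.6 and 38.2 CPM in WT libraries. Espl1 (separase), the protease that cuts cohesin, had 90.8, 109 and 102 CPM in CD97-deficient, 98.6, 102 and 97.4 CPM in Gα13-deficient and 62.1, 70.7 and 53.8 CPM in WT libraries. Neither gene overlapped between deficient and WT libraries. Ube2c rose by 1.18 ± 0.20 and 1.26 ± 0.20 (edgeR adjusted p = 0.0078 and 0.00383), and Espl1 by 0.69 ± 0.11 and 0.67 ± 0.11 (edgeR adjusted p = 0.0017 and 0.00145). Pttg1 (securin), the inhibitor that holds separase inactive until anaphase, had 32.6, 32.5 and 29.0 CPM in CD97-deficient, 35.4, 26.1 and 29.0 CPM in Gα13-deficient and 42.5, 35.2 and 28.9 CPM in WT libraries. The 3 groups overlapped, and it was the only one of the 47 genes with a negative estimate in either comparison with WT, namely -0.19 ± 0.16 with a 95% interval of -0.52 to 0.15 in CD97-deficient cells and -0.24 ± 0.16 with an interval of -0.57 to 0.09 in Gα13-deficient cells (edgeR adjusted p = 0.497 and 0.359). The intervals leave out the rise seen in its partner Espl1. Its promoter window held neither motif. The RefSeq start of Pttg1 lies inside the GENCODE gene, so the window may miss other starts. The same holds, among others, for Cdca3, Cdca8, Kif2c and Kif4, whose windows hold TTTGAA. Birc5, Mad2l1, Ncaph and Nusap1, like Pttg1 without either motif, were called higher in both genotypes, and Nuf2 in Gα13-deficient cells only. Ncapg, whose window holds both motifs, was called in neither genotype. Cdc20, the APC/C activator, rose by 0.99 ± 0.24 and 1.12 ± 0.24.

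All 8 kinesins rose in both genotypes, with medians of 1.01 in CD97-deficient and 1.15 in Gα13-deficient cells. Kif11 (Eg5), the motor that pushes the spindle poles apart, had 363, 308 and 337 CPM in CD97-deficient, 317, 315 and 385 CPM in Gα13-deficient and 154, 189 and 101 CPM in WT libraries. Kif23, the motor subunit of centralspindlin, had 228, 226 and 226 CPM in CD97-deficient, 213, 241 and 249 CPM in Gα13-deficient and 123, 151 and 115 CPM in WT libraries. The CD97-deficient libraries of Kif23 were nearly equal, whereas WT values of Kif11 were scattered. Kif11 rose by 1.18 ± 0.20 and 1.20 ± 0.20 (edgeR adjusted p = 0.0102 and 0.00715, the second becoming 0.0705 with the replicate block), and Kif23 by 0.81 ± 0.10 and 0.85 ± 0.10 (edgeR adjusted p = 0.00059 and 0.000172). The other 6, Kif15, Kif20a, Kif20b, Kif22, Kif2c and Kif4, ranged between Kif20b at 0.83 ± 0.14 and Kif2c, the microtubule depolymerase of centromeres, at 1.26 ± 0.16 in CD97-deficient cells. In Gα13-deficient cells the same genes marked the ends, Kif20b at 0.90 ± 0.14 and Kif2c at 1.28 ± 0.16.

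The 5 spindle and microtubule proteins also rose in both genotypes, with medians of 1.08 and 1.12 in CD97-deficient and Gα13-deficient cells. Tpx2, the activator of Aurora A on spindle microtubules, had 139, 138 and 130 CPM in CD97-deficient, 113, 150 and 160 CPM in Gα13-deficient and 65.9, 89.1 and 61.3 CPM in WT libraries. Nusap1, which bundles spindle microtubules near chromosomes, had 126, 112 and 108 CPM in CD97-deficient, 99.1, 107 and 125 CPM in Gα13-deficient and 48.8, 72.2 and 39.5 CPM in WT libraries. In both genes WT library 2 was the highest WT library and still lay below all deficient libraries. Tpx2 rose by 0.91 ± 0.15 and 0.97 ± 0.15 (edgeR adjusted p = 0.003 and 0.00145), and Nusap1 by 1.10 ± 0.19 and 1.04 ± 0.19 (edgeR adjusted p = 0.00591 and 0.00569). Stmn1 (stathmin), which destabilises microtubules until it is phosphorylated in mitosis, rose by 1.38 ± 0.21 and 1.53 ± 0.21. Hmmr, a spindle assembly factor, rose by 1.08 ± 0.19 and 1.12 ± 0.19, and Prc1, the crosslinker of the anaphase midzone, by 1.0 ± 0.13 and 1.12 ± 0.13.

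Condensin and topoisomerase genes passed the test in the smallest share of any role, with 4 of 6 higher in CD97-deficient cells and 3 of 6 in Gα13-deficient cells (medians 0.88 and 0.89). Top2a, the topoisomerase that disentangles sister chromatids, had 784, 691 and 752 CPM in CD97-deficient, 733, 758 and 894 CPM in Gα13-deficient and 388, 441 and 266 CPM in WT libraries. It rose by 1.02 ± 0.16 and 1.12 ± 0.16 (edgeR adjusted p = 0.00448 and 0.00208), with no deficient library below 691 CPM. Smc4, which pairs with Smc2 as the ATPase core of both condensins, had 287, 259 and 264 CPM in CD97-deficient, 249, 255 and 354 CPM in Gα13-deficient and 248, 252 and 232 CPM in WT libraries. Apart from Gα13-deficient library 3 all values were close together, and the log2 fold changes of 0.14 ± 0.12 (95% interval -0.11 to 0.39) and 0.23 ± 0.12 (interval -0.02 to 0.48) did not pass the test (edgeR adjusted p = 0.48 and 0.235). Its partner Smc2 had 170, 175 and 169 CPM in CD97-deficient, 132, 141 and 205 CPM in Gα13-deficient and 107, 117 and 70.9 CPM in WT libraries. Both deficient groups lay above WT for Smc2, with log2 fold changes of 0.79 ± 0.21 (edgeR adjusted p = 0.0471) and 0.70 ± 0.21 (edgeR adjusted p = 0.063). Ncapg, a subunit of condensin I, had 60.8, 52.6 and 43.1 CPM in CD97-deficient, 27.7, 33.7 and 70.1 CPM in Gα13-deficient and 27.5, 41.1 and 20.03 CPM in WT libraries. Gα13-deficient library 3 stood apart from the other 2 of its group, which overlapped WT, and the changes of 0.81 ± 0.42 and 0.58 ± 0.41 did not pass (edgeR adjusted p = 0.289 and 0.431). An exon of Ncapg overlaps one of Lcorl on the opposite strand, and whether strand was used in counting is not given. Ncapg is 1 of 11 genes of the set with such an overlap, among them Cdc25c, Cdca8 and Kif20a, which rose in both genotypes. The other condensin I subunits Ncapd2 and Ncaph rose by 0.95 ± 0.12 and 1.07 ± 0.15 in CD97-deficient cells and by 1.08 ± 0.12 and 1.10 ± 0.15 in Gα13-deficient cells.

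All 4 cytokinesis genes rose in both genotypes, with medians of 0.99 in CD97-deficient and 1.14 in Gα13-deficient cells. Anln (anillin), the scaffold of the contractile ring, had 138, 132 and 138 CPM in CD97-deficient, 148, 163 and 165 CPM in Gα13-deficient and 66.5, 80.1 and 51.8 CPM in WT libraries. Racgap1, the GTPase-activating subunit of centralspindlin, had 72.1, 69.97 and 71.8 CPM in CD97-deficient, 63.3, 77.6 and 84.6 CPM in Gα13-deficient and 33.0, 45.2 and 32.9 CPM in WT libraries. The CD97-deficient libraries were tightly grouped in both genes. Anln rose by 1.04 ± 0.12 and 1.26 ± 0.12 (edgeR adjusted p = 0.000584 and 8.18e-05), and Racgap1 by 0.94 ± 0.14 and 1.02 ± 0.14 (edgeR adjusted p = 0.001 and 0.000347). Depdc1b showed the largest rise of the set in Gα13-deficient cells, with 8.86, 10.1 and 11.9 CPM in CD97-deficient, 7.49, 11.3 and 15.6 CPM in Gα13-deficient and 4.47, 4.48 and 2.72 CPM in WT libraries. It also lay at the low end of expression, and its log2 fold changes of 1.38 ± 0.29 and 1.55 ± 0.29 had wide errors (edgeR adjusted p = 0.0103 and 0.00349). Ect2, the exchange factor that starts assembly of the contractile ring, rose by 0.82 ± 0.12 and 1.0 ± 0.12.

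**Figure D3:**
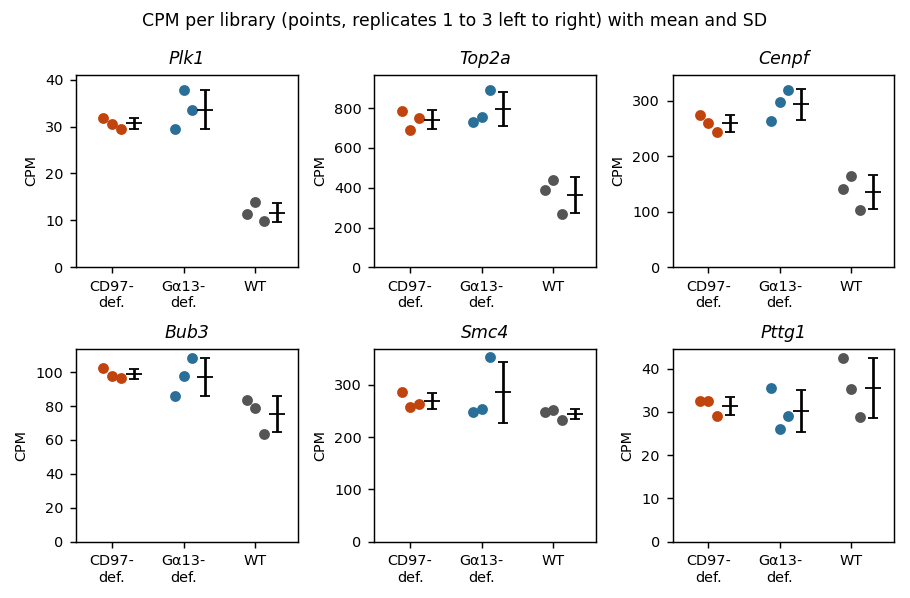
CPM per library for 6 of the genes, with CD97-deficient, Gα13-deficient and WT libraries from left to right in each panel (points, replicates 1 to 3) and the mean with its SD (bars). Plk1, Top2a and Cenpf show deficient libraries well above all WT libraries, Bub3 a narrow gap, and Smc4 and Pttg1 overlapping or nearly equal groups.

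**Figure D4:**
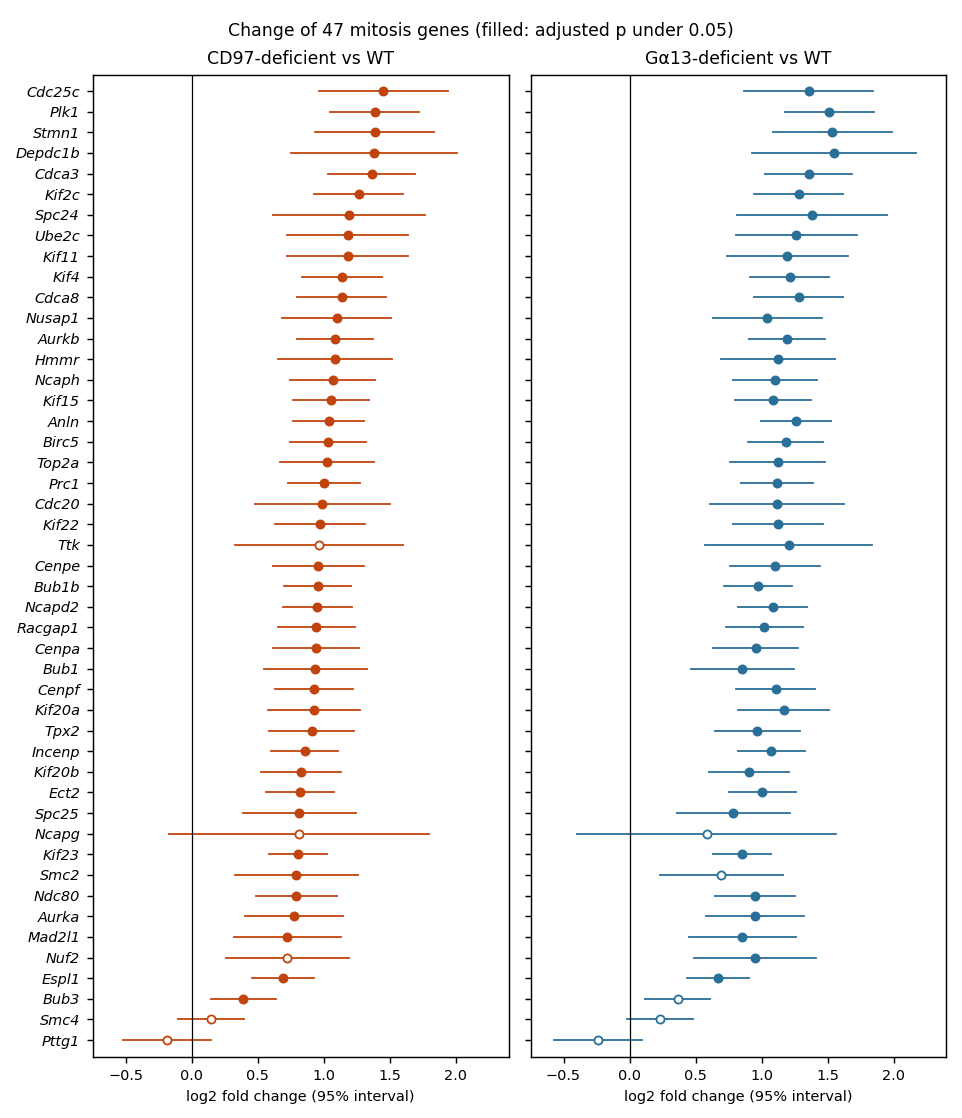
Log2 fold change of each gene with its 95% interval in CD97-deficient (left) and Gα13-deficient (right) against WT cells, ordered by the left panel. Filled points passed the test (42 of 47 on each side), and the open points are Ttk, Nuf2, Ncapg, Smc4 and Pttg1 on the left and Bub3, Smc2, Ncapg, Smc4 and Pttg1 on the right.

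Per kilobase of exon, the levels within the set spanned more than an order of magnitude. Averaged over the 9 libraries, Top2a stood at 70.3 CPM per kb, followed by Smc4 at 51.2, Kif11 at 36.8, Ube2c at 32.9 and Bub1b at 27.9 CPM per kb, while Cdc25c at 2.58 and Depdc1b at 2.55 CPM per kb were the lowest. In WT cells alone Smc4 was the highest, with a mean of 46.8 CPM per kb, above Top2a with 40.5 CPM per kb. In CD97-deficient cells the order was reversed, Top2a at 82.4 and Smc4 at 51.8 CPM per kb, and likewise in Gα13-deficient cells, at 88.2 and 54.8 CPM per kb.

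Between the deficient genotypes no gene of the set was told apart. In Gα13-deficient against CD97-deficient cells 0 of 47 genes were called by edgeR, 0 had an unadjusted p under 0.05 and 0 were called by DESeq2, while 0.0332% of all tested genes were called higher and 0.0166% lower. The estimates leaned to the Gα13-deficient side, with 37 of 47 above 0 against 49.1% of tested genes, and a median of 0.08. The libraries did not separate in the sum of the set. Gα13-deficient library 1 (4784 CPM) lay below every CD97-deficient library (4897 to 5275 CPM), and library 3 (6012 CPM) above. On leaving out 1 library the median ran from 0.01 to 0.19. For 41 of 47 genes the 95% interval of the difference lay within 1.5-fold in either direction, and the intervals reached 0.215 to 0.956 on the log2 scale to either side of the estimate. The smallest p-values belonged to Incenp (0.22 ± 0.12, interval -0.03 to 0.47) and Anln (0.23 ± 0.12, interval -0.03 to 0.48), with edgeR adjusted p = 0.868 and 0.87. Anln was the only gene of the set whose libraries did not overlap between these 2 groups, against 7.16% of tested genes with all Gα13-deficient libraries above. Ncapg had the widest interval, from -1.18 to 0.73.

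Within the WT and Gα13-deficient groups, the genes of the set largely moved together from library to library, and less so among CD97-deficient libraries. WT library 2 was the highest of its group in 43 genes and WT library 3 the lowest in 35. Among Gα13-deficient libraries, library 3 was the highest in 35 genes and library 1 the lowest in 41. CD97-deficient libraries were the most alike, with library 1 highest in 24 genes, library 3 in 18 and library 2 in 5, and library 2 lowest in 24. They were all of female pattern, while the other groups held both patterns. The median coefficient of variation over the 47 genes was 7.07% in CD97-deficient, 12.4% in Gα13-deficient and 20.8% in WT libraries, and the most variable genes were Cdc25c (19.0%), Ncapg (52.4%) and Spc24 (47.3%) in the same order. Since the genes share these library-wide shifts, they do not count as 47 separate observations of a genotype.

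A further list of 122 genes with roles in mitosis, all tested, showed how far the pattern reached. In CD97-deficient against WT cells 50 of them rose and 0 fell, with a median log2 fold change of 0.45, and in Gα13-deficient against WT cells 61 rose and 1 fell, with a median of 0.56. Of all tested genes 4.84% and 5.74% were called higher and 3.69% and 5.24% lower in these comparisons. The counts by role below stand beside the same shares. Kinetochore genes outside the set rose in 14 and 18 of 29. The smallest p-values in CD97-deficient against WT cells were those of Casc5, the scaffold that carries Bub1 and BubR1, at 0.94 ± 0.13 and 1.10 ± 0.13, and Nsl1 at 0.92 ± 0.15 and 0.93 ± 0.15. At the other end Zwint had 0.04 ± 0.19 and -0.20 ± 0.19, and Itgb3bp -0.05 ± 0.36 and -0.68 ± 0.37, neither passing. Spindle and centrosome genes rose in 14 and 16 of 28, among them Ckap2 (1.12 ± 0.15 and 1.14 ± 0.15) and Aspm (1.12 ± 0.14 and 1.02 ± 0.14), while Haus3 and Tubgcp3, parts of the augmin and gamma-tubulin complexes that start new microtubules, stayed at 0.04 ± 0.17 and -0.02 ± 0.10 in CD97-deficient cells. Kinesins rose in 3 of 5 in each genotype, with Kif18b at 1.13 ± 0.14 and 1.01 ± 0.14 and Kif14 at 1.01 ± 0.17 and 1.06 ± 0.17, and Kif18a and Kifc1 did not pass.

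Among other regulators, 8 of 18 rose in each genotype. Mki67, the proliferation antigen that coats mitotic chromosomes, averaged 1613 ± 29 CPM in CD97-deficient, 1751 ± 141 CPM in Gα13-deficient and 917 ± 154 CPM in WT libraries (SD, n = 3 each) and rose by 0.81 ± 0.11 and 0.93 ± 0.11 (edgeR adjusted p = 0.000704 and 0.000172). Nek2, a centrosome kinase, rose by 1.30 ± 0.19 and 1.26 ± 0.18, whereas Nek6 and Nek9 did not pass. Of the list of further APC/C subunits and regulators 1 and 3 of 16 genes were called, all higher, with medians of 0.12 and 0.15. The first count is near the share of all tested genes called higher in CD97-deficient cells (4.84%). Called in both genotypes was Fbxo5 (Emi1), an APC/C inhibitor made at entry into S phase, at 0.73 ± 0.14 and 0.78 ± 0.14, while Cdc26 had 0.04 ± 0.20 and -0.05 ± 0.20. Anapc5 and Anapc16 passed in Gα13-deficient cells (0.43 ± 0.09 and 0.40 ± 0.11) but not in CD97-deficient cells (0.28 ± 0.09 and 0.01 ± 0.11). Cohesin and shugoshin genes rose in 7 of 14 in each genotype, including Cdca5 (sororin), which protects cohesin until mitosis, at 0.91 ± 0.14 and 1.05 ± 0.14, and the cohesin core subunit Smc1a at 0.48 ± 0.08 and 0.45 ± 0.08. Esco1, an acetyltransferase of cohesin active outside S phase, was the 1 gene that fell, in Gα13-deficient cells, with 71.6, 66.2 and 73.1 CPM in Gα13-deficient and 108, 85 and 83.5 CPM in WT libraries (-0.39 ± 0.12, edgeR adjusted p = 0.0454). In CD97-deficient cells its change was -0.36 ± 0.12 (edgeR adjusted p = 0.073). Stag2 and Wapal did not pass. The condensin II subunits Ncapg2 (0.85 ± 0.16 and 0.82 ± 0.16) and Ncaph2 (0.42 ± 0.11 and 0.50 ± 0.11) rose in both genotypes, and Ncapd3 passed in Gα13-deficient (0.37 ± 0.10) but not in CD97-deficient cells (0.21 ± 0.10). Of 9 further cytokinesis genes 1 and 3 rose, with Cit (citron kinase), which works at the midbody, at 0.92 ± 0.12 and 1.02 ± 0.12 and Sept9 at 0.32 ± 0.11 (edgeR adjusted p = 0.0915) and 0.68 ± 0.11 (edgeR adjusted p = 0.00145), while Sept6 and Vps4b did not pass. Directly between Gα13-deficient and CD97-deficient cells, the differences of 0.39 ± 0.11 for Anapc16, 0.36 ± 0.11 for Sept9, 0.16 ± 0.09 for Anapc5 and 0.16 ± 0.09 for Ncapd3 did not pass (edgeR adjusted p = 0.478, 0.551, 0.889 and 0.886).

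A list of 45 genes of DNA replication and S phase rose in 31 in CD97-deficient and 30 in Gα13-deficient cells, with 0 lower and medians of 0.80 and 0.81. Of all tested genes 4.84% and 5.74% were called higher. TTTGAA was found in 5 of the 37 of these genes with a promoter window (13.5%) and in 29 of 98 of the further mitosis genes (29.6%), against 30 of 38 of the 47 described here.

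**Figure D5:**
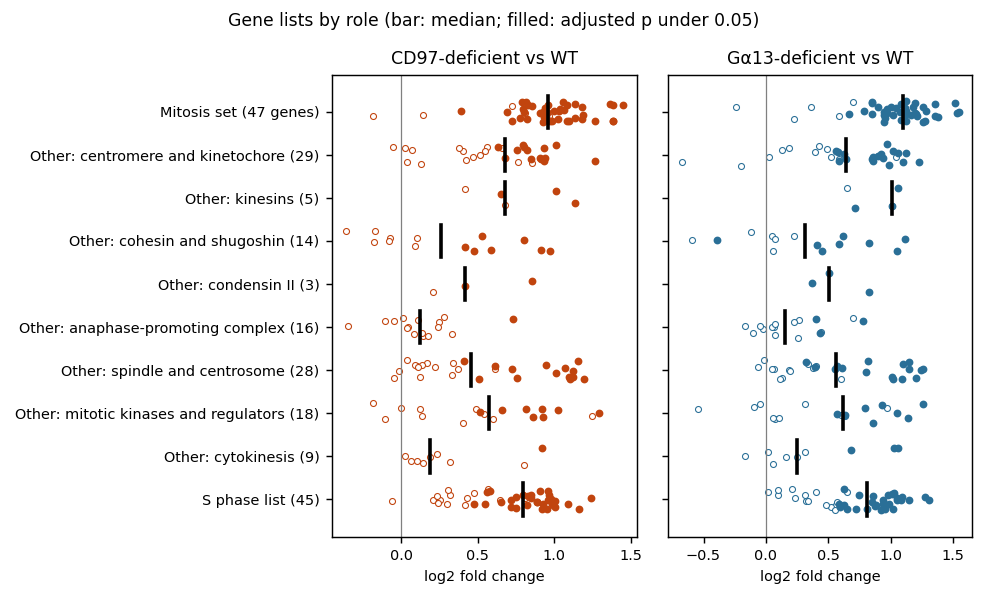
Log2 fold change of each gene (points, filled where adjusted p was under 0.05) with the median of each list (black bar), in CD97-deficient (left) and Gα13-deficient (right) against WT cells. The 47 genes at the top lie between -0.19 and 1.45 on the left and between -0.24 and 1.55 on the right, the list of further anaphase-promoting complex genes has medians of 0.12 and 0.15, and the S phase list lies with medians of 0.80 and 0.81.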

How the data were processed

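The deposited table holds whole-number read counts per gene that the authors made. STAR, HTSeq, DESeq2 and the mm10 build are named, without versions or roles, in the submitters' processing notes, and strand and annotation are not given in the sources used here. No gene in the table has fewer than 10 counts over the 9 libraries. Groups and replicate numbers come from the sample titles. WT columns were matched through the source names, which like the columns number these libraries 2 to 4, where the titles number them 1 to 3; all source names carry lane 6. Testing used edgeR 4.0.16 (R 4.3.3; TMM factors, default expression filter, robust quasi-likelihood F-test, all 9 libraries in 1 fit, genotype as factor), with Benjamini-Hochberg adjustment over 12043 genes and a threshold of 0.05. The filter removed 2166 genes. The common biological coefficient of variation was 0.15. Standard errors come from the F statistic. Of the symbols, 12797 matched GENCODE release 21 (mm10) as written, 1218 matched by a synonym and 194 did not match. An exon of 11 of the 47 genes overlaps a gene on the opposite strand (Plk1, Cdc25c, Cdca8, Ube2c, Cdc20, Kif20a, Kif22, Kif4, Nusap1, Prc1 and Ncapg), and Kif22 and Kif4 have an annotated pseudogene, so reads could be shared. Promoter sequences are from RefSeq (GRCm38.p6).

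The genes, lists and tests were chosen with earlier results of these data known. Values in every library are given for the 2 genes with the highest mean CPM per role, genes not called in a comparison with WT, the largest and smallest changes, and the smallest p-values between the deficient genotypes. Of each further list, the 2 smallest and 2 largest p-values in CD97-deficient against WT cells are named, and Esco1 was added after its values were seen. The alternatives were RLE factors, library totals, no filter, DESeq2 1.42.0, fits of 2 groups, replicate blocks, the sex pattern or macrophage level as a term, libraries of 1 sex pattern, and leaving out each library. The test was tried on simulated counts. The replicate numbers of the titles were taken to pair Gα13-deficient and WT libraries, since in 3 of 3 same-number pairs the deviations from the group means correlated above 0.1, at 0.111 to 0.179, and those of differently numbered libraries at -0.12 to -0.021. Deviations from a group mean cancel out over the group, so the negative values largely follow from the positive ones and are not separate support. The pairing comes from the data, as the labels name no shared animal or day. The same-number pairs also share their sex pattern. For CD97-deficient and WT libraries 0 of 3 same-number pairs correlated above 0.1.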

Additional observations from a re-analysis of the deposited data

How the results depend on the processing

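The count of 42 of the 47 genes in CD97-deficient against WT cells became 40 to 44 under RLE factors, library totals, no filter, DESeq2 and fits of 2 groups, 28 with the sex pattern as a term, 39 with the macrophage level as a term, and 34 to 43 on leaving out 1 library, where the median ran from 0.87 to 1.12. Over all tested genes the 1027 calls became 788 to 1296, 222, 716 and 360 to 1268 in the same order of settings. Of the 42 calls in the set, 32 held without any 1 library. Aurka, Bub1, Bub3, Cdc20, Depdc1b, Kif11, Mad2l1, Smc2, Spc24 and Spc25 lost theirs in at least 1 such fit. Of the 9 fits, Bub3 and Mad2l1 were called in 3, Smc2 in 4, Cdc20 and Spc25 in 5 and Spc24 in 6. Aurka was called in 7, and Bub1, Depdc1b and Kif11 in 8. In Gα13-deficient against WT cells the 42 became 40 to 44 under the same settings, 42 with either term and 40 to 43 on leaving out 1 library (median 0.95 to 1.26), and 39 calls held in each such fit (Bub1, Spc25 and Ttk did not). Over all tested genes the 1322 calls became 938 to 1560, 1327 with the sex term, 1297 with the macrophage term and 711 to 1470 on leaving out 1 library. The direct comparison stayed at 0 of the 47 genes in each setting (median 0.01 to 0.19 on leaving out 1 library). Chosen after seeing the data, the female-pattern libraries alone (3 CD97-deficient or 1 Gα13-deficient against 1 WT library, which is assumed to vary like the others) gave medians of 0.69 and 0.78 and 30 and 25 calls, with Ncapg at -0.29 in Gα13-deficient cells; the cause was not tested. With the replicate block over 9 libraries 40 and 41 genes were called (Bub3 and Smc2, and Ttk, were lost), and in fits of the 2 groups 41 and 37, and it changed no call between the deficient genotypes. These stood among 1087 and 1338 calls over all tested genes with 9 libraries, and 786 and 1193 with 2 groups. Of the 6 Gα13-deficient and WT libraries 6 correlated best with their own number, which largely restates the same-number correlations. For CD97-deficient libraries the numbers are shared names only. Counts were lowest for Depdc1b, Spc25 and Cdc25c, and standard errors were largest for Ncapg and Depdc1b.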
